A study of Homo sapiens with 4 samples.

Results

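The promoters of the 35 listed aminoacyl-tRNA synthetase genes were examined in HEK293, a human embryonic kidney cell line, for DNA methylation gained under a targeted methylation system. A promoter was taken to reach from 1000 bp before to 1000 bp after the start of the canonical transcript (GENCODE 44 on hg19), and the 35 genes were compared with all 20161 protein-coding promoters defined alike. The genes comprise 20 for cytosolic and 15 for mitochondrial enzymes, and GARS1 and KARS1, counted as cytosolic, encode both. The study's 4 MBD-seq libraries, 1 per condition, came from untreated cells and from cells with Ab-3A3L (WT), Ab-3A3L (K844E) or Ab-3A3L (R887E). The values below are those of Ab-3A3L (WT), from the authors' list of 12864 peaks that were new relative to the untreated cells. These cells had been transiently transfected with dCas9-SunTag, a catalytically dead Cas9 that carries a peptide array, with a peptide-binding antibody fused to the catalytic domain of DNMT3A and the C-terminal part of DNMT3L, and with an sgRNA to the CpG island of ISG15. They were collected after 3 days and sorted for all plasmids, so the measurement is of transient expression in 1 cell line. No synthetase gene was targeted. The untreated cells carried none of the plasmids, and the libraries of K844E and R887E were not analysed here.

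Aminoacyl-tRNA synthetases join each amino acid to its tRNA and so supply every ribosome. Cytosolic and mitochondrial translation mostly use separate enzymes, all encoded in the nucleus, and both sets are housekeeping genes. Promoters of such genes mostly lie in CpG islands, which are unmethylated in most cells. DNMT3A is a de novo methyltransferase that methylates CpGs, and DNMT3L stimulates it. MBD-seq captures fragmented DNA on MBD2, a protein that binds methylated CpGs, and sequences what was bound, so a peak marks a stretch with many methylated CpGs. For each peak the authors' list gives a fold enrichment at its summit over a background, and how the untreated cells entered that background is not given in the sources used here. The number of fragments at the summit was recovered from this fold and the listed p-value under the formulas of MACS2, which were assumed. The recovered background rate was at its lowest value, 0.611, at 8 of the 16 member peaks. With 1 library per condition no difference could be set against a spread between replicates, no p-value was computed, and the 95% intervals below cover counting error only.

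A new peak was listed at 15 of the 35 promoters, or 42.9% (exact binomial interval 26.3% to 60.6%), against 41.6% of all protein-coding promoters. The genes with a peak were EPRS1, CARS1, GARS1, KARS1, NARS1, SARS1, TARS1, TARS3 and YARS1 among the cytosolic enzymes and AARS2, CARS2, IARS2, MARS2, NARS2 and YARS2 among the mitochondrial ones. The other 20 genes had none. The strongest peak was that of TARS3, the second cytosolic threonyl-tRNA synthetase, with a fold of 37.2, the highest of the whole list. The other 14 genes had folds from 6.27 to 14.9.

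Stretches of the sequence show the CpGs of some promoters with a peak and of some of the CpG-richest ones without. They are 150 bases each outside untranslated exon parts, read from GRCh37, the build of hg19, 5′ to 3′ on the strand of the gene, with each CpG in capitals. For TARS3, YARS2, GARS1 and MARS2, which were among the 5 members with the highest folds, the stretch is the one nearest to the peak summit. For VARS1 and EARS2, among the 3 peakless promoters with the most CpGs, it is the stretch of the promoter with the most CpGs.
TARS3: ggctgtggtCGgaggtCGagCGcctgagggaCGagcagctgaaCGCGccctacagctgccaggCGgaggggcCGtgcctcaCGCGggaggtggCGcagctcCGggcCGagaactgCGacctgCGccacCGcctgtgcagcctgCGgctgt
YARS2: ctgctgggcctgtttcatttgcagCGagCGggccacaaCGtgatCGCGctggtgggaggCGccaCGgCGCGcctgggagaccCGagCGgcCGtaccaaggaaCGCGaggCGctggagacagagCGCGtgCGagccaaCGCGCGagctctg
GARS1: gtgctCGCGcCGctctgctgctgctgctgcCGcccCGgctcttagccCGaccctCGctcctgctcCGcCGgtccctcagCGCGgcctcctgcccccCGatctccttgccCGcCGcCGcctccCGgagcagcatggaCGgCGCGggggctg
MARS2: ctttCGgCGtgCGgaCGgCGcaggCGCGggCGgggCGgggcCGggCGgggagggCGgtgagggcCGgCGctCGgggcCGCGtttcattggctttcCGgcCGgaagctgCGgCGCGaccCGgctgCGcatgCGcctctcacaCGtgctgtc
VARS1: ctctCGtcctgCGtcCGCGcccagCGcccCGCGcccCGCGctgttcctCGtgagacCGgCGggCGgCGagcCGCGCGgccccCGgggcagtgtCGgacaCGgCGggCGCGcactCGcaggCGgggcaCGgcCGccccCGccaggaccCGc
EARS2: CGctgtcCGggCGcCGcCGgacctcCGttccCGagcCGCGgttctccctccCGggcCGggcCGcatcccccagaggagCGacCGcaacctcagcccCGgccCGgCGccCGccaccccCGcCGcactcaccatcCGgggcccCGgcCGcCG
The TARS3 stretch (chr15:102264371-102264520, minus strand) lies in coding exon 1, from 156 to 305 bp downstream of the start site, and holds 17 CpGs. The YARS2 stretch (chr12:32908377-32908526, minus strand), with 21 CpGs, and the GARS1 stretch (chr7:30634569-30634718, plus strand), with 19, also lie in coding exon 1. The MARS2 stretch (chr2:198569943-198570092, plus strand) is the 150 bp before the start site and holds 26 CpGs. In VARS1 the 150 bp before the start site (chr6:31763530-31763679, minus strand) hold 29 CpGs. The EARS2 stretch (chr16:23569068-23569217, minus strand) holds 24 CpGs and lies upstream of EARS2. It overlaps a coding exon of UBFD1, the gene on the other strand, but was not shown to lie wholly in it. In FARS2, the other peakless promoter among these 3, the richest such stretch holds 16 CpGs. HARS2, a peakless member with 75 promoter CpGs, had 10 in its richest such stretch. The stretches were not chosen alike with and without a peak, so their CpG numbers are not compared. Over the whole promoters the median was 105 CpGs in members with a peak and 80.5 in those without.

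TARS3 (ENSG00000185418) stood apart from the other members. Its peak spans chr15:102264040-102264831 (hg19), covers the start site at 102264676 and holds 92 CpGs in 792 bp. The summit lies in coding exon 1, 230 bp downstream of the start site, with 62 fragments (exact Poisson interval 47.5 to 79.5) over a background rate of 0.694. The next fold among the members, that of YARS2, was 14.9, so that TARS3 was 2.50 times higher, and it was 4.28 times the members' median of 8.69. The CpG number of the TARS3 promoter, 111, was not unusual. Among the 1222 promoters of other than synthetase genes with a peak in its class of 111 to 125 CpGs, the median fold was 8.26 and the highest 25.2, at ROPN1L. Of all promoters, 7, TARS3 included, had a strongest peak with at least 62 fragments. The peak sequence had no other match in the reference over at least 100 bp at 90% identity. Within 500 kb of TARS3, 5 of 8 other promoters had a new peak, with folds from 6.99 at PCSK6 to 14.0 at CHSY1.

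**Figure D1:**
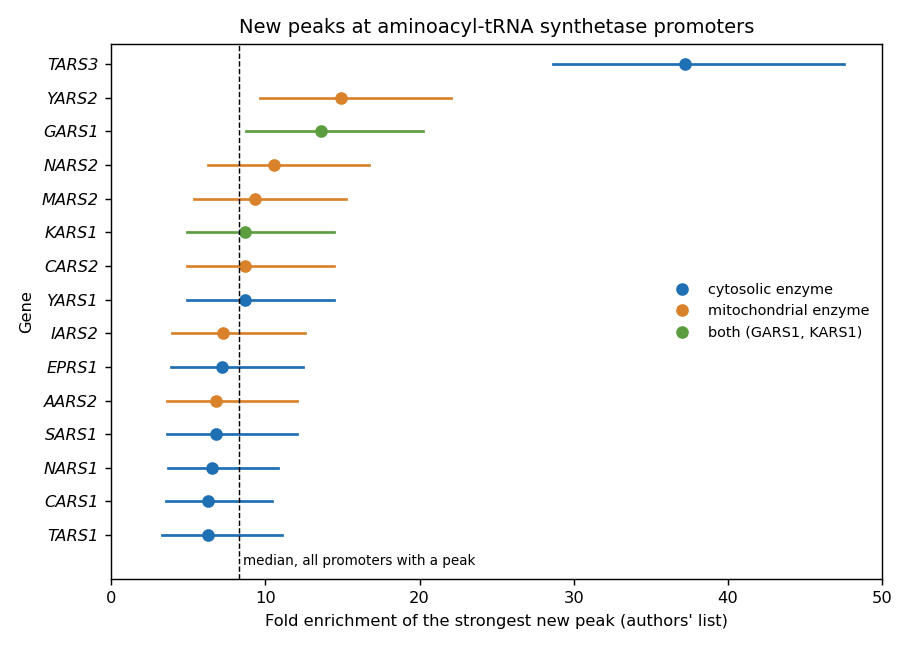
Fold enrichment of the strongest new peak (x axis) at each of the 15 aminoacyl-tRNA synthetase promoters with a peak (y axis), coloured by compartment. Points are the listed folds, lines the 95% Poisson interval of the fragments at the summit on the fold scale, and the dashed line the median of all promoters with a peak, 8.26, and TARS3 alone lies clear of the other members.

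YARS2 and GARS1 followed TARS3. YARS2, the mitochondrial tyrosyl-tRNA synthetase, had a peak at chr12:32908239-32908673 with a fold of 14.9 and 23 fragments (interval 14.6 to 34.5), and its fold exceeded that of 93.9% of all promoters with a peak. GARS1, the glycyl-tRNA synthetase of both compartments, had a peak at chr7:30634238-30634857 with a fold of 13.6 and 22 fragments, and covered its start site. These 3 were the only members above the upper quartile of all promoters with a peak, 11.05. NARS2, the mitochondrial asparaginyl-tRNA synthetase, had a fold of 10.6 with 16 fragments at chr11:78285350-78285733. MARS2, the mitochondrial methionyl-tRNA synthetase, a gene without introns in its coding part, had a fold of 9.31 with 14 fragments at chr2:198569913-198570562.

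CARS2, KARS1 and YARS1 each had a fold of 8.69 from 13 fragments. Their peaks lie at chr13:111358107-111358516, chr16:75681855-75682196 and chr1:33283503-33283909. CARS2 encodes the mitochondrial cysteinyl-tRNA synthetase, KARS1 the lysyl-tRNA synthetase of both compartments and YARS1 the cytosolic tyrosyl-tRNA synthetase. The remaining 7 genes lay below the median of all promoters with a peak, 8.26. IARS2, for mitochondrial isoleucine, had a fold of 7.27 with 11 fragments at chr1:220267755-220268038. EPRS1, the fused glutamyl- and prolyl-tRNA synthetase, had 7.20 with 11 fragments at chr1:220219478-220219909.

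The lowest folds were close to each other. SARS1 for cytosolic serine (chr1:109756812-109757074) and AARS2 for mitochondrial alanine (chr6:44280812-44281068) each had a fold of 6.83 from 10 fragments. NARS1 for cytosolic asparagine was the only member with a pair of peaks, at chr18:55288570-55288832 with a fold of 6.54 and at chr18:55289174-55289481 with 5.81. A stretch of the first NARS1 peak has 1 near copy on the same chromosome, so that its fragments are less certain. It was the only one of the 16 member peaks with such a match at 90% identity over 100 bp. CARS1 for cytosolic cysteine (chr11:3078866-3079118) had a fold of 6.28 with 13 fragments over a higher background rate of 1.229. TARS1 for cytosolic threonine (chr5:33441079-33441331) had 6.27 with 10 fragments (interval 4.8 to 18.4).

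Apart from TARS3, neighbours in this order could not be separated. The Poisson intervals of the other 14 genes all reached down to or below 18.4 fragments, the upper bound of the lowest gene. The median number of fragments was 13 over the 15 members and 17 over all promoters with a peak, while the median folds were 8.69 and 8.26. The −log10 q of the strongest peak was 88.1 at TARS3, 24.7 at YARS2 and 22.1 at GARS1. The smallest among the members was 6.31, at TARS1, against 2.0 for the weakest peak of the list.

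The share of promoters with a new peak differed widely with the number of CpGs within 1000 bp of the start site. The members ranged from 58 CpGs at TARS2 to 145 at KARS1 with a median of 91, against 96 over all promoters. Among all protein-coding promoters the share with a new peak was 24.0% with 64 to 82 CpGs, 40.8% with 83 to 96, 54.6% with 97 to 110 and 65.1% with 111 to 125. Promoters with the members' CpG numbers, weighted by 10 classes and without the members themselves, had a peak in 42.7% of cases, or 14.9 genes in 35. The members' 15 were close to that number. The 15 genes with a peak had a median of 105 CpGs and the 20 without a peak 80.5.

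Classes with members held 1 to 11 of them, so the counts are given beside the share of all promoters, without intervals. Of the 11 members with 64 to 82 CpGs, AARS2 alone had a peak, with 67 CpGs, where 24.0% of all promoters did. Of the 18 members with 83 to 125 CpGs, 13 had one. They were 5 of 7 with 83 to 96, 4 of 7 with 97 to 110 and all 4 with 111 to 125, TARS3, GARS1, MARS2 and YARS1. The shares of all promoters in these classes were 40.8%, 54.6% and 65.1%. The 3 members with 126 to 143 CpGs, EARS2, FARS2 and VARS1, had none, whereas 70.3% of all promoters in this class did. KARS1 had a peak in the class of 144 to 169 CpGs, where 78.4% of promoters did. TARS2, the mitochondrial threonyl-tRNA synthetase, with 58 CpGs, and WARS1, the cytosolic tryptophanyl-tRNA synthetase, with 61, had no peak, in a class where 6.28% of promoters had one. TARS2 was also the only member without a CpG island in its promoter, so that 15 of the 34 members with an island had a peak, or 44.1%, against 56.8% of all promoters with an island and 44.7% of those with a like CpG number.

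The shares of cytosolic and mitochondrial genes with a peak lay within each other's intervals. A peak was found at 9 of 20 cytosolic promoters, or 45.0% (exact binomial interval 23.1% to 68.5%), and at 6 of 15 mitochondrial ones, or 40.0% (16.3% to 67.7%). Promoters of a like CpG number gave 43.8% and 41.2%. The promoters of the cytosolic genes held a median of 92 CpGs and those of the mitochondrial genes 88. The median fold was 7.20 for the 9 cytosolic genes, with a range from 6.27 to 37.2, and 9.0 for the 6 mitochondrial genes, from 6.83 to 14.9, so that the ranges overlapped. Without GARS1 and KARS1, which serve both compartments, 7 of 18 cytosolic promoters had a peak, or 38.9%. With only peaks of a −log10 q of at least 10, each compartment kept 4 genes and the order of the medians turned, to 11.14 for cytosolic and 9.93 for mitochondrial genes.

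For 15 amino acids the members include a gene of each kind, and in 6 of them the genes of the compartments were listed differently. For cysteine, asparagine and tyrosine both genes had a peak. For glutamate, serine and threonine only the cytosolic genes did, with EPRS1 against EARS2, SARS1 against SARS2, and TARS1 and TARS3 against TARS2. For alanine, isoleucine and methionine only the mitochondrial gene did, with AARS2, IARS2 and MARS2 against AARS1, IARS1 and MARS1. For the other 6, phenylalanine, histidine, leucine, arginine, valine and tryptophan, no gene had one. In 3 of the 6 amino acids with a peak on 1 side, it was on the gene with more CpGs. AARS1, the cytosolic alanyl-tRNA synthetase, had 106 CpGs and no peak, while AARS2 had 67 and a peak. MARS1 had 82 CpGs and MARS2 113.

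In the multisynthetase complex, a cytosolic particle that holds several of these enzymes, 2 of the 7 listed subunits had a peak, EPRS1 and KARS1. The other 5, IARS1, LARS1, MARS1, QARS1 and RARS1, had 80 to 93 CpGs and none. Promoters of a like CpG number gave 41.0% for the 7 genes, which is within that interval. QARS1, the glutaminyl-tRNA synthetase, had its nearest new peak 11199 bp away and RARS1, for arginine, 42664 bp away.

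The new peaks mostly lay beside the start site. Of the 15 strongest peaks, 11 had the summit downstream of the start site and 4 upstream, with a median of 158 bp downstream and a range from 762 bp upstream to 441 bp downstream. Measured from the nearest protein-coding start site of the gene, the median was 49 bp downstream, with 10 summits downstream. Over all promoters with a peak the median was 165 bp downstream, and 70.5% of the summits were downstream. The summit was in the gene's own coding exon 1 in 8 members and in an intron of the gene in 3, IARS2, NARS1 and SARS1. The start site itself was within a peak in 5 of 15 members, CARS2, EPRS1, GARS1, MARS2 and TARS3, or 33.3%, against 64.3% of all promoters with a peak. The members' strongest peaks were narrower, with a median of 384 bp against 594 bp. Among all promoters whose strongest peak was at most 384 bp wide, 37.1% had the start site in a peak, and of the 8 members with such narrow peaks none did. At NARS1 the peaks lay on both sides, 106 bp upstream and 236 bp downstream of the start site at their nearest edges.

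**Figure D2:**
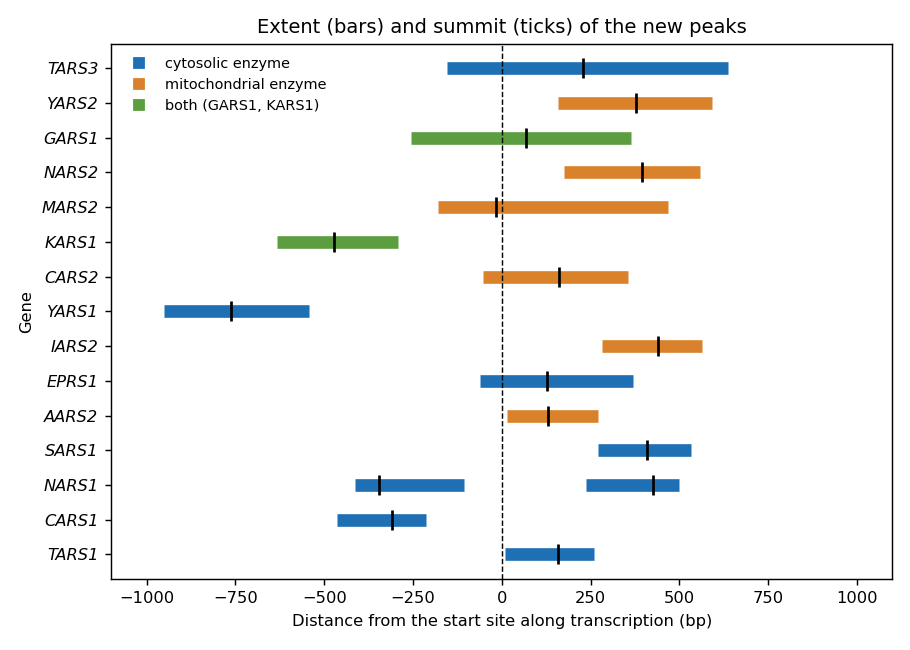
Extent (bars) and summit (ticks) of the 16 new peaks at the 15 aminoacyl-tRNA synthetase promoters with a peak, by distance in bp from the start site along the direction of transcription (x axis), genes in order of fold, coloured by compartment. The bars of 5 genes cross the start site at 0, and those of KARS1, YARS1 and CARS1 lie upstream of it.

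Some synthetase genes share a promoter region with a gene on the other strand, with which they are transcribed in opposite directions. Such a start site within 1000 bp was present for 8 members, and 2 of them, KARS1 and YARS1, had a peak. In both the summit lay nearer to the start of the neighbour. At KARS1 it was in coding exon 1 of TERF2IP, which encodes a protein of the telomere complex, and 365 bp from that start. At YARS1 it was in an intron of S100PBP, 467 bp from that start. The other 6, EARS2 beside UBFD1, FARS2 beside LYRM4, RARS2 beside the replication gene ORC3, SARS2 beside the mitochondrial ribosomal gene MRPS12, and HARS1 and HARS2 beside each other, had none. HARS1 and HARS2, the cytosolic and mitochondrial histidyl-tRNA synthetases, start 85 bp apart, so that they amount to a single region with 75 CpGs and the same nearest peak 26.3 kb away. Promoters of a like CpG number gave 51.3% for the 8 genes. Of the other 27 members, 13 had a peak, or 48.1%, where a like CpG number gave 40.1%. Over all 2003 protein-coding promoters with such a neighbour the share was 50.7%, with 55.5% by CpG number.

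For the 20 genes without a peak, the distance from the start site to the nearest one is given, which exceeds 1000 bp by definition. It was not computed for other promoters without a peak, so it is not called near or far. Their nearest new peak lay at a median of 51790 bp, the closest being 4821 bp from FARSA, a subunit gene of the cytosolic phenylalanyl-tRNA synthetase, and the farthest 507113 bp from WARS2, the mitochondrial tryptophanyl enzyme. FARSB, the other subunit gene, was 205 kb from its nearest peak. No other start site of a protein-coding transcript of these 20 genes had a peak within 1000 bp. SARS2 for mitochondrial serine with 101 CpGs, VARS2 with 105 and AARS1 with 106 were among them. RARS2, LARS2, FARSA, WARS2 and FARSB, the first 2 for mitochondrial arginine and leucine, had 72 to 79 CpGs. A promoter without a listed peak did not pass the authors' threshold against untreated cells, which is not a measurement of its methylation.

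VARS1 and VARS2, the cytosolic and mitochondrial valyl-tRNA synthetases, both lie on chromosome 6 in the major histocompatibility region. Of the 70 other promoters within 500 kb of VARS1, 1 had a new peak, or 1.4%, where promoters of a like CpG number gave 25%. Around VARS2 it was 2 of 32, against 32.5% by CpG number. The authors' list also has 5 peaks on alternative sequences of chromosome 6, so the reads had been mapped to a reference that holds this region more than once. The part of this in the lack of peaks at VARS1 and VARS2 was not tested. Without both genes, 15 of 33 members had a peak, or 45.5%, against 41.5% by CpG number.

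**Figure D3:**
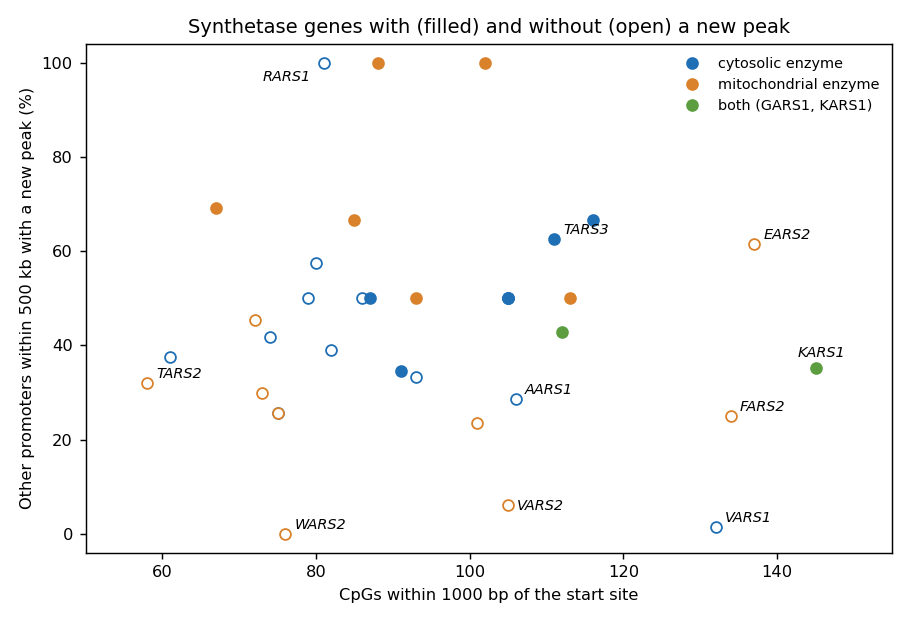
Share of other protein-coding promoters within 500 kb that had a new peak (y axis, percent) against the number of CpGs within 1000 bp of the start site (x axis) for the 35 synthetase genes, filled with and open without a new peak, coloured by compartment. CARS1, EPRS1 and NARS1 share a point at 105 CpGs, HARS1 and HARS2 share a point at 75, and VARS1 and VARS2 stand at 1.4% and 6.2%.

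The neighbourhoods of the members differed in how many other promoters were listed. Of the other promoters within 500 kb, a median of 50% had a peak around the 15 members with one, with a range from 34.6% to 100%. Around the 20 without, the median was 32.6%, with a range from 0% at WARS2 (0 of 4) to 100% at RARS1 (3 of 3). The number of such neighbours went from 2 at TARS1 to 70 at VARS1, so some shares rest on very few promoters. The ranges overlapped, and EARS2 had no peak while 61.5% of its neighbours did. EPRS1 and IARS2 count as neighbours of each other, as do HARS1 and HARS2. TERF2IP and S100PBP count as neighbours of KARS1 and YARS1, where the same peak lies within 1000 bp of both starts. The shares around members with a peak are thus partly made of the members' own peaks. Such medians were not computed for all promoters with and without a peak.

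Other genes of tRNA charging were listed at a rate near that of their CpG number. Of 15 such genes 7 had a new peak at the promoter, or 46.7% (exact binomial interval 21.3% to 73.4%), and a like CpG number gave 45.6%. The 3 scaffold genes of the multisynthetase complex, AIMP1, AIMP2 and EEF1E1, had none. In their CpG classes 24.1%, 65.0% and 6.3% of promoters other than those of synthetase genes had one. Of the genes for the amidation that makes mitochondrial glutaminyl-tRNA, GATC had a peak with a fold of 6.84, and QRSL1 and GATB had none. MTFMT, which formylates methionyl-tRNA, had a fold of 9.31, and the selenocysteine synthesis genes SEPSECS and PSTK had 9.31 and 8.68. XPOT, the tRNA export factor, had a fold of 9.93, and the deacylase genes DTD1 and DTD2 had 10.6 and 9.31, while AARSD1 and the peptidyl-tRNA hydrolase gene PTRH2 had none. TRNT1, which adds the CCA end of tRNAs, had 149 CpGs and no peak, and its nearest one was 672 kb away.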

How the data were processed

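The authors mapped single-end reads of 150 bp to hg19 with Bowtie2. MACS2 is named in the submitters' processing notes, while its settings and version are not given in the sources used here. The deposited list has 10 columns, of which the position, the summit and the authors' fold (a ratio of fragments at the summit to a background) were used, with the deposited −log10 p-value and −log10 q-value. The deposited score equals 10 times the −log10 q-value, rounded down, and was not used. Depth per library is unknown from this list. The fragments k and the background rate were recovered from fold = (k + 1)/(rate + 1) and the listed p-value as a Poisson tail above k, with a largest miss of 0.000403 in −log10 p.

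Peaks on chromosomes 1 to 22, X and Y ended within those of GRCh37, and peaks on other sequences were not placed. Start sites came from GENCODE 44, canonical for 19881 genes and the longest protein-coding transcript for 280. Overlap was at least 1 bp. The share at a like CpG number is a mean over the promoters compared. It averages the share with a peak among non-members in the same of 10 CpG classes. For promoters with and without a start on the other strand within 1000 bp, the classes included the members. CpG islands were rebuilt from unmasked sequence (over 200 bp, at least 50% GC, observed/expected over 0.6). The members, gene lists and alternatives were chosen with earlier results of these data known. By rule, all 35 members were named, with full values for the 6 highest and 6 lowest folds, as were neighbours starting on the other strand within 1000 bp. The neighbours of TARS3, ROPN1L, the peak widths and the search for copies were chosen after the values were seen. Shares have 95% exact binomial intervals and fragments exact Poisson ones. Steps were tested on simulated data. A further gene of tRNA charging is not reported here. Python 3.11.15, numpy 2.4.6, pandas 2.3.3, scipy 1.17.1, pysam 0.24.0, matplotlib 3.10.9, samtools 1.23.1 and blastn 2.17.0 were used.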

Additional observations from a re-analysis of the deposited data

How the results depend on the processing

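Of 45 alternative values, 38 stayed within 1.5 times the reported count or fold, within the members' binomial interval for the share at a like CpG number, or within the quartiles of the members for the summit distance, whose median nonetheless went from 158 to 49 bp with the nearest protein-coding start site of each gene. The other 7 came from the stricter lists, which hold fewer peaks by construction. With peaks of at least the median fold, 8 members had a peak, or 22.9%, 4 of them cytosolic, and the like CpG share was 25.8%. With a −log10 q of at least 10, 8 members had one, or 22.9%, again 4 of them cytosolic. The like CpG share was then 23.2% and the median fold of the cytosolic genes 11.14. Both like CpG shares were set against the members' interval from the full list, not against the members' share in the same list. Both lists kept the same 8 genes, CARS2, GARS1, KARS1, MARS2, NARS2, TARS3, YARS1 and YARS2. With 500 bp on either side, YARS1 alone was lost. Leaving out VARS1 and VARS2 was chosen after seeing the data. No paired analysis was possible because each condition had a single library. With a median of 13 fragments at the summit, neighbours in the order of folds could not be separated, apart from TARS3.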
